A study of Mus musculus with 16 samples.

Results

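The axon guidance ligands and receptors are the semaphorins of classes 3 to 7, plexins, neuropilins, ephrins, Eph receptors, Slits, Robos, netrins, UNC5 receptors and DCC. They were chosen by symbol among the protein-coding genes of the count tables, which gave 68 of the 21734 protein-coding genes and of 49585 genes in all. *Ntn3* also has a symbol of this pattern and was not analysed here. The genes fall into 12 families. RNA-seq was performed on 16 libraries of C2C12 cells, an established line of mouse myoblasts, which stop dividing and fuse into myotubes once serum is lowered. In the first experiment, wild-type (WT) cells and AMPK-KO cells, in which both catalytic subunit genes of AMPK (*Prkaa1* and *Prkaa2*) were targeted with CRISPR/Cas9, were compared as undifferentiated myoblasts (d0) and after 8 days of differentiation (d8), with 2 libraries in each of the 4 groups. In the second, AMPK-/- cells carried a FLAG-BirA tag and EGFP knocked into endogenous *Tet2*, either with the wild-type *Tet2* sequence (TET2-WT) or with S97E (TET2-S97E), which replaces the serine that AMPK phosphorylates by a glutamate that mimics phosphorylation. These cells were all undifferentiated and all lacked AMPK, with 2 clones of each genotype and 2 libraries of each clone, so the TET2 lines were not independent of the knockout cells they were made from. The sequencing tracks of the knockout are described as coming from 2 independent AMPK-KO lines, but the labels do not say which library came from which line or whether replicates were separate cultures, so p-values measure only the spread between these libraries.

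Axon guidance molecules are named for steering growing nerve fibers, but they act wherever cells sense neighbors. Semaphorins signal through plexins, the secreted class 3 members usually together with a neuropilin. Ephrins on 1 cell bind Eph receptor tyrosine kinases on the next and signal into both, Slits repel cells through Robo receptors, and netrins attract through DCC or repel through UNC5 receptors. In skeletal muscle such molecules are known for placing motor axons, for the neuromuscular junction, and for the migration of muscle precursors.

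The libraries held 17883417 to 24663079 counts each in the first experiment and 19801909 to 37790358 in the second, and the 68 genes took 0.324 to 0.527% of them. Levels are given as CPM, which are counts scaled to the size and composition of the library. Levels of different genes are set side by side as TPM, which are also scaled by exon length. Marker lists are the exception, since they are summed, and their most abundant gene is named, in CPM without scaling by length. The targeted gene *Prkaa1* was measured at 159 and 159 CPM in WT d0 libraries and at 79.7 and 78.0 CPM in AMPK-KO d0 libraries, and it fell on both days (edgeR's quasi-likelihood test, adjusted p = 0.0116 at d0 and 0.0419 at d8). *Prkaa2* was measured at 6.22 and 10.1 CPM in WT d8 libraries and at 1.26 and 0.826 CPM in AMPK-KO d8 libraries (adjusted p = 0.0190). At d0 the WT libraries held 35 and 33 counts of *Prkaa2* and the AMPK-KO libraries 4 and 9, a difference that did not pass (adjusted p = 0.0527). *Tet2* itself, the tagged gene, was measured at 22.5 to 58.4 CPM in the 4 TET2-WT libraries and at 7.88 to 22.1 CPM in the 4 TET2-S97E libraries, a difference that did not pass the threshold (adjusted p = 0.0621).

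Replicates of some groups stood apart. In WT d0, of 51 guidance genes with at least 10 counts there, 14 differed by over 2-fold between the replicates, and 10 of the 14 were higher in replicate 1. *Slit2* was measured at 169 CPM in replicate 1 and 33.5 CPM in replicate 2, *Nrp2* at 465 and 114 CPM, and *Unc5c* at 37.3 and 5.26 CPM. In the AMPK-KO d0 group 11 of 48 such genes differed by over 2-fold, and in the other groups and clones 1 to 8 did. Over all genes the AMPK-KO d8 libraries differed most (chi-square per degree of freedom 107, beside 92.9 in WT d0 and 29.4 to 68.1 in the other groups and clones), and their summed myotube markers were 1561 and 9516 CPM, although 5 of 48 guidance genes differed by over 2-fold there. Genotype calls of the guidance genes and of the named effectors and other guidance molecules are therefore also given without single libraries. These were each of the WT d0 libraries for calls at d0 and each of the AMPK-KO d8 libraries for calls at d8. For calls with differentiation only some of the libraries were treated in this way.

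Most of the guidance genes were detected in these muscle cells. In all 16 libraries 46 of the 68 exceeded 3 counts, the level under which a gene is treated here as not detected. Another 8 (*Epha5*, *Epha6*, *Epha8*, *Robo3*, *Robo4*, *Slit3*, *Unc5d* and *Dcc*, the classical attractive netrin receptor) stayed at or under 3 counts in all 16. After the filter on low counts 54 were tested in the first experiment. The 14 untested genes were those 8 and *Epha3*, *Epha10*, *Ephb1*, *Ntn5*, *Plxnc1* and *Slit1*, which reached at most 33 counts there.

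In WT d0 myoblasts each family had 1 leading member. Among ligands, the membrane-bound *Sema7a* reached 180 ± 24.4 TPM (SD, n = 2), the secreted *Sema3b* 75.4 ± 34.5, the B ephrin *Efnb2* 66.0 ± 25.5, the netrin *Ntn1* 48.2 ± 3.75, the A ephrin *Efna1* 25.9 ± 0.245 and *Slit2* 14.4 ± 13.9 TPM. Among receptors, *Plxnb2* was highest at 228 ± 1.29 TPM, followed by *Epha2* at 121 ± 32.7, *Unc5b* at 118 ± 17.6, *Ephb6* at 90.6 ± 77.5, the co-receptor *Nrp2* at 88.4 ± 77.8 and *Robo1* at 9.28 ± 3.16 TPM. The order of neighbors was often within the spread. *Ntn4*, at 43.7 ± 3.91 TPM, overlapped *Ntn1*, and *Sema3c*, at 44.1 ± 16.9 TPM, overlapped *Sema3b*. By contrast the Slit and Robo families each rested on a single member in WT d0 cells, since *Slit3* and *Robo2*, the next in level, had mean TPM of 0.0300 and 0.0263.

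**Figure D1:**
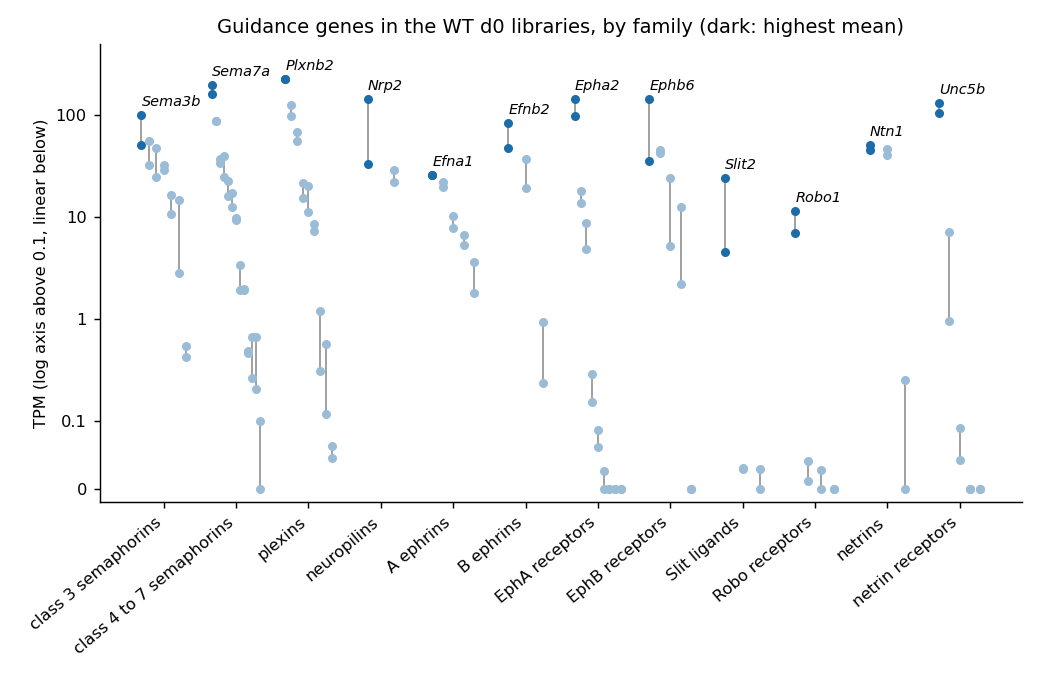
TPM of the 68 guidance genes in the WT d0 libraries (vertical axis, logarithmic above 0.1 TPM), grouped by family on the horizontal axis. Each point is 1 of 2 libraries, a gray line joins the libraries of a gene, and the dark points mark the member with the highest mean, such as *Plxnb2* at 228 TPM. The long lines of *Nrp2*, *Ephb6* and *Slit2* show how far apart the WT d0 libraries were.

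None of the 12 leading members was called between WT and AMPK-KO cells at either day. *Plxnb2*, a receptor for class 4 semaphorins, was measured at 479 and 510 CPM in WT d0, 386 and 361 in AMPK-KO d0, 438 and 436 in WT d8, and 408 and 337 in AMPK-KO d8 libraries. *Unc5b*, a repulsive netrin receptor, was measured at 224 and 191, 201 and 236, 301 and 188, and 251 and 120 CPM in the same order. *Ntn1*, the founding netrin, was measured at 78.3 and 92.2, 61.7 and 86.0, 105 and 121, and 88.8 and 110 CPM. The genotypes overlapped on both days for *Unc5b* and *Ntn1*, and *Plxnb2* was lower in each AMPK-KO library than in the WT libraries of the same day. Between libraries of the same day and replicate number *Ntn1* was lower in AMPK-KO cells each time, and *Unc5b* went both ways. The labels do not say what the replicate number marks. *Efnb2*, a transmembrane ligand of EphB receptors, was measured at 90.0 and 166 CPM in WT d0, 132 and 175 in AMPK-KO d0, 62.5 and 127 in WT d8, and 69.0 and 201 in AMPK-KO d8 libraries. *Sema3b*, a secreted semaphorin, was measured at 130 and 70.5, 54.4 and 40.3, 153 and 157, and 89.2 and 82.1 CPM in this order. The genotypes overlapped on both days for *Efnb2*, which was higher in AMPK-KO cells in each same-numbered pair of libraries. *Sema3b* was lower in each AMPK-KO library than in each WT library of the same day. *Ephb6*, an Eph receptor without kinase activity, was measured at 150 and 39.0, 67.7 and 97.7, 284 and 169, and 283 and 191 CPM, with the genotypes overlapping on both days. *Efna1* was measured at 12.9 and 13.8, 19.3 and 23.3, 8.54 and 12.7, and 19.6 and 17.1 CPM and was higher in each AMPK-KO library than in the WT libraries of that day. *Nrp2*, which binds class 3 semaphorins, was measured at 465 and 114 CPM in WT d0, 351 and 418 in AMPK-KO d0, 268 and 252 in WT d8, and 637 and 692 in AMPK-KO d8 libraries. At d0 the genotypes overlapped, and at d8 both AMPK-KO libraries were above both WT libraries.

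In AMPK-KO cells a few guidance genes were at or near 0 counts and others were higher than in WT cells. Of the 54 genes tested at d0, 8 were called between AMPK-KO and WT cells, 2 higher and 6 lower, against a background of 3.52% of all 14329 genes tested (0.698% higher and 2.83% lower). At d8 again 8 were called, 3 higher and 5 lower, against a background of 5.35% (1.36% higher and 3.98% lower). The receptor genes *Unc5c* and *Plxna4* and the ligand genes *Sema4d*, *Sema4f* and *Efna5* fell at both days, and the ligand *Sema5a* and the receptor *Epha7* rose at both. These 7 genes were called at both days, and no share of all genes called at both days is given to set beside them. *Sema6d* was called at d0 and *Sema4a* at d8. The median log2 fold change over the tested guidance genes was -0.22 at d0 and -0.02 at d8, against -0.001 and 0.04 over all genes tested. In the families of B ephrins, EphB receptors, Slits, Robos, netrins, neuropilins and class 3 semaphorins no member was called at either day.

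Among the ligands, *Sema4d* (GRCm38 chr13:51685529-51793747), a class 4 semaphorin that signals through plexin-B1, was measured at 0.965 and 1.08 CPM in WT d0 libraries and at 0 and 0.0467 CPM in AMPK-KO d0 libraries. At d8 it was measured at 11.3 and 19.1 CPM in WT libraries and at 0.0408 and 0 CPM in AMPK-KO libraries. WT cells thus held 40 counts at d0 and 612 counts at d8 over both libraries, and AMPK-KO cells held 1 count on each day. The ratio of WT to AMPK-KO cells was 41.4 at d0 (95% exact counting interval 7.01 to 1673, adjusted p = 0.0270) and 699 at d8 (125 to 27670, adjusted p = 0.00436). Each ratio rests on 1 AMPK-KO count and is not a measured fold, and intervals cover counting error only.

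*Sema4f*, another transmembrane semaphorin, was measured at 18.3 and 26.2 CPM in WT d0 libraries, 4.19 and 5.14 CPM in AMPK-KO d0, 17.3 and 14.0 CPM in WT d8, and 2.57 and 3.06 CPM in AMPK-KO d8. Every AMPK-KO library was below every WT library. The log2 fold change was -2.25 ± 0.29 (SE) at d0 (adjusted p = 0.0116) and -2.47 ± 0.29 at d8 (adjusted p = 0.00802). *Efna5*, a GPI-anchored ephrin, was measured at 7.28 and 6.18 CPM in WT d0 libraries, 0.733 and 0.514 CPM in AMPK-KO d0, 2.75 and 1.69 CPM in WT d8, and 0.204 and 0.146 CPM in AMPK-KO d8. The genotypes did not overlap, and the log2 fold change was -3.42 ± 0.45 at d0 (adjusted p = 0.0129) and -3.61 ± 0.49 at d8 (adjusted p = 0.0129). The other A ephrins tested were not called at either day.

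*Sema5a*, a semaphorin with thrombospondin repeats, went the other way. It was measured at 116 and 87.8 CPM in WT d0 libraries, 242 and 322 CPM in AMPK-KO d0, 98.0 and 83.9 CPM in WT d8, and 393 and 382 CPM in AMPK-KO d8. The AMPK-KO libraries were above all WT libraries, by 1.47 ± 0.22 on the log2 scale at d0 (adjusted p = 0.0175) and by 2.09 ± 0.22 at d8 (adjusted p = 0.00567). *Sema4a*, a class 4 semaphorin, was measured at 0.386 and 1.03 CPM in WT d0, 3.61 and 4.07 in AMPK-KO d0, 0.551 and 0.281 in WT d8, and 2.16 and 3.45 CPM in AMPK-KO d8 libraries. It passed the threshold at d8 (log2 fold change 2.75 ± 0.61, adjusted p = 0.04996) and not at d0 (2.44 ± 0.59, adjusted p = 0.0742), and the change of its difference with time was not called. *Sema6d*, a ligand of plexin-A1, was measured at 5.64 and 5.80 CPM in WT d0 and at 1.52 and 1.92 CPM in AMPK-KO d0 libraries (log2 fold change -1.73 ± 0.32, adjusted p = 0.0370). At d8 its log2 fold change of -1.19 ± 0.32 did not pass (adjusted p = 0.0833).

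Among the receptors, *Unc5c* (chr3:141465216-141834924), a repulsive netrin receptor, was measured at 37.3 and 5.26 CPM in WT d0 libraries and at 21.9 and 13.1 CPM in WT d8 libraries. In AMPK-KO cells it had 0 counts in both d0 libraries and 0 and 1 counts in the d8 libraries. With the AMPK-KO libraries set at a floor of 3 counts per library, it was at least 143-fold lower at d0 (adjusted p = 0.0283), a bound that is 251-fold from WT d0 replicate 1 alone and 35.4-fold from replicate 2 alone. At d8 the ratio, which rests on 1 AMPK-KO count, was 775 (95% exact counting interval 139 to 30650, adjusted p = 0.0264). *Plxna4* (chr6:32144268-32588192), a plexin that transduces class 3 semaphorin signals with neuropilins, was measured at 4.58 and 1.25 CPM in WT d0 and 2.59 and 2.49 CPM in WT d8 libraries, and had 0 counts in each of the 4 AMPK-KO libraries. On the same floor it was at least 19.6-fold lower at d0 (adjusted p = 0.0415, and 30.8-fold or 8.39-fold from WT d0 replicate 1 or replicate 2 alone) and at least 18.9-fold lower at d8 (adjusted p = 0.0347). Noncoding transcripts lie antisense to *Plxna4*, and whether counting used the strand is not given in the sources used here, so reads of the 2 strands may not have been told apart.

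*Epha7* (chr4:28813131-28967499), a receptor for A ephrins, was the called receptor that rose. It was measured at 0.772 and 0.434 CPM in WT d0 libraries, 22.0 and 8.18 CPM in AMPK-KO d0, 0.441 and 2.11 CPM in WT d8, and 45.5 and 23.9 CPM in AMPK-KO d8. The genotypes were far apart in each library, with a log2 fold change of 4.62 ± 0.85 at d0 (adjusted p = 0.0365) and 4.74 ± 0.82 at d8 (adjusted p = 0.0241). Its relative *Epha2*, the EphA receptor with the highest level, was measured at 125 and 194 CPM in WT d0, 302 and 210 in AMPK-KO d0, 124 and 71.4 in WT d8, and 102 and 65.6 CPM in AMPK-KO d8 libraries, and was not called between genotypes.

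**Figure D2:**
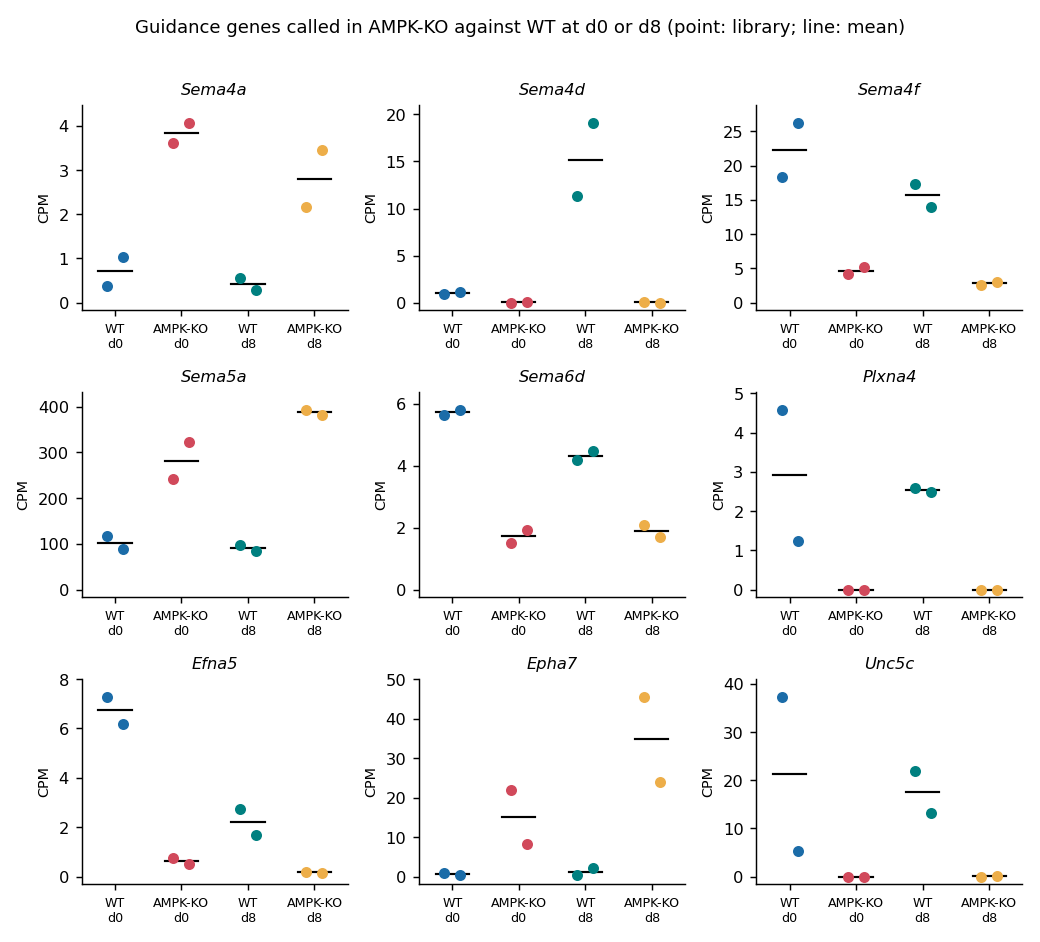
CPM (vertical axes, linear from 0, with a scale of its own for each gene) of the 9 guidance genes called between AMPK-KO and WT cells at d0 or d8. Each point is a library and each line the mean of 2 libraries. Mean *Sema4d* was 1.02 CPM in WT d0 and 15.2 CPM in WT d8 cells and near 0 in both AMPK-KO groups, and *Epha7* and *Sema5a* were high in both AMPK-KO groups.

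The calls rested on few libraries. Without WT d0 replicate 1, 5 guidance genes were called at d0 (2.01% of all genes), and without WT d0 replicate 2, 7 were (2.88%), whereas without AMPK-KO d0 replicate 1 or replicate 2 there were 0 and 1, as calls fell to 0.112% and 0.306% of all genes. Without WT d8 replicate 1 or replicate 2 there were 4 (1.55% and 1.54%). At d8, 2 and 3 guidance genes were called without WT d8 replicate 1 and replicate 2 (0.717% and 0.715% of all genes), 3 and 5 without AMPK-KO d8 replicate 1 and replicate 2 (1.55% and 3.66%), and 13 without either WT d0 replicate (5.87% and 5.95%). Without WT d0 replicate 1, *Unc5c* (adjusted p = 0.0222), *Sema4f* (0.0215), *Sema5a* (0.0344) and *Efna5* (0.0392) were still called, and *Plxna4* (0.0693), *Sema4d* (0.0640), *Epha7* (0.119) and *Sema6d* (0.0903) were not. Without WT d0 replicate 2, *Unc5c* (adjusted p = 0.00851), *Plxna4* (0.0264), *Efna5* (0.0273) and *Sema4f* (0.0303) were still called, and *Sema5a* (0.0551), *Sema4d* (0.0564), *Sema6d* (0.0768) and *Epha7* (0.112) were not. The other 1 and 3 genes called without replicate 1 or replicate 2 were not among the 8. At d8, *Sema4d* (adjusted p = 0.0168 and 0.00906), *Sema5a* (0.0244 and 0.0139) and *Sema4f* (0.0460 and 0.0229) were called without AMPK-KO d8 replicate 1 and without replicate 2. *Efna5* (0.0659 and 0.0485) and *Epha7* (0.0704 and 0.0285) were called only without replicate 2, and *Unc5c* (0.125 and 0.0725), *Plxna4* (0.108 and 0.0670) and *Sema4a* (0.0988 and 0.135) in neither case. Over all the alternative fits at d8, *Sema4d* stayed called in 13 of 13, and *Sema5a* and *Sema4f* each in 13 of 14. The other genes called at d8 stayed called in 5 to 11 of 13. By the DESeq2 Wald test 15 guidance genes were called at d0 and 17 at d8 (9.72% and 11.6% of all genes). With no filter on low counts 24 and 26 were called (8.08% and 9.98%), and with at least 10 counts in every library 3 and 2 (1.78% and 2.41%). With only the groups compared in the fit 3 and 15 were called (2.54% and 5.61%).

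**Figure D3:**
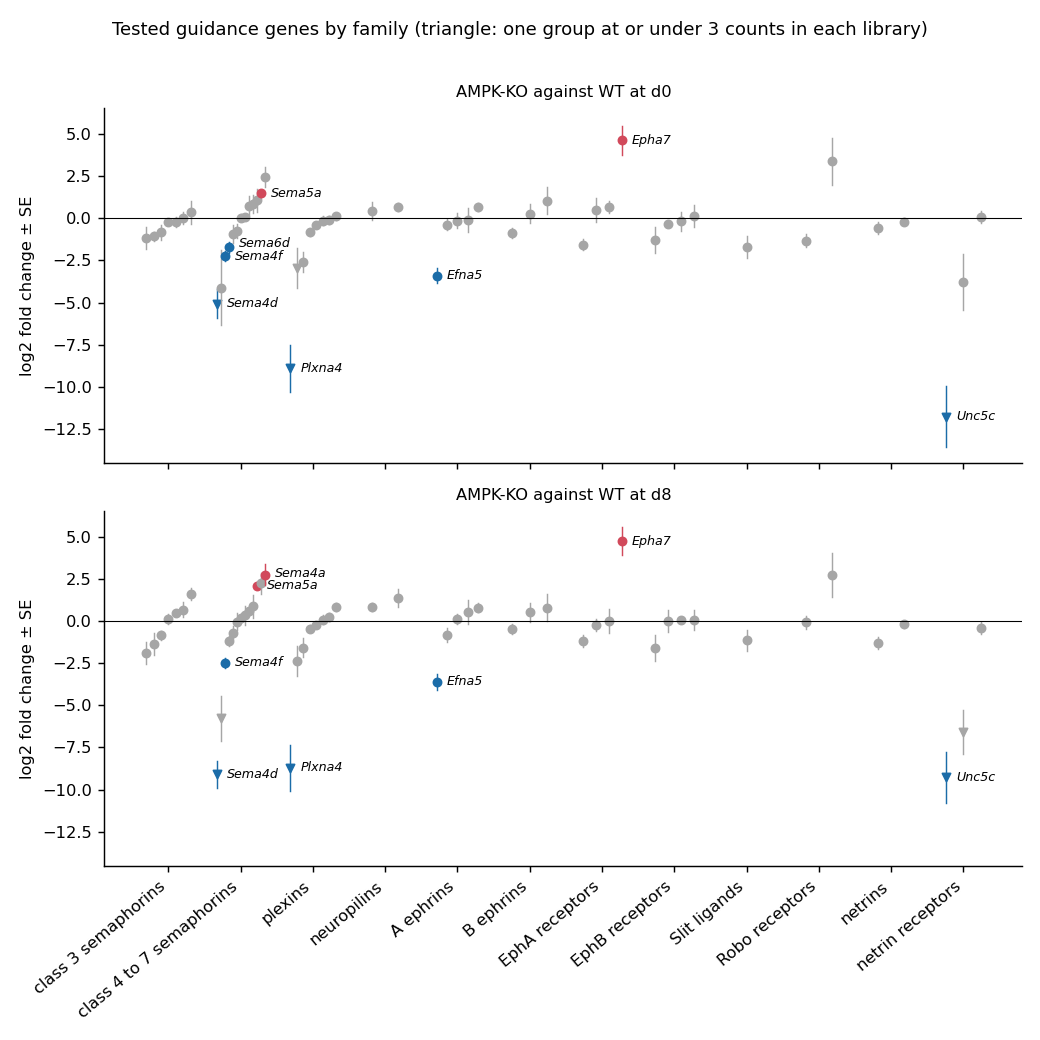
Log2 fold change ± SE of AMPK-KO against WT at d0 (upper panel) and d8 (lower panel) for the 54 tested guidance genes, by family. Red and blue points passed an adjusted p under 0.05 with a higher or lower level, gray points did not, and triangles mark genes at or under 3 counts in each library of 1 group, whose fitted value is not a measured fold. Most points are gray. By edgeR 21 of the 54 genes had an unadjusted p under 0.05 at d0 and 25 at d8, and no such share of all genes is given. Of the called genes *Unc5c*, *Plxna4* and *Sema4d* lie far below 0 and *Epha7* above it. Some uncalled genes, such as *Unc5a* at d8, also lie far from 0.

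Upstream sequences are shown for the genes called in most comparisons of genotypes with the lowest adjusted p. These genes were called between AMPK-KO and WT cells and not between the TET2 genotypes, where *Efna5* was not tested. CG dinucleotides were counted because TET2 oxidizes methylated cytosine in them. Only the lines of the second experiment differ in the *Tet2* sequence, but the study also reports less TET2 protein in AMPK-deficient C2C12 cells. E-boxes are the letters bound by MyoD and related factors. Each sequence is the run of 250 bases before the start in RefSeq (GRCm38.p6), 5′ to 3′ along the gene. E-boxes (CANNTG, palindromic and so the same on both strands) are in capitals and everything else is in lower case. RefSeq promoters were found for 58 of the 68 genes. *Sema4d* would also qualify but has 3 listed starts, which gene counts do not tell apart, and none is shown.
Sema5a (chr15:32244563-32244812, plus strand): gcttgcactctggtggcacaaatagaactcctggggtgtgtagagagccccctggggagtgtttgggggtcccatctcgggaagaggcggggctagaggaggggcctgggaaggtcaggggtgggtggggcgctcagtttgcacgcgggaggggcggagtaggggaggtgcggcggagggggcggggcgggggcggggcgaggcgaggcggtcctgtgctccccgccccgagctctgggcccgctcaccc
Sema4f (chr6:82939770-82940019, minus strand): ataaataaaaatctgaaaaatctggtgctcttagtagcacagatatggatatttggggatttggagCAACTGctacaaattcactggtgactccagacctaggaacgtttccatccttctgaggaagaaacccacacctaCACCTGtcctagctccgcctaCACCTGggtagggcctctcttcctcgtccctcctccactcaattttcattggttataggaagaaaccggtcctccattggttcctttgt
Efna5 (chr17:62881318-62881567, minus strand): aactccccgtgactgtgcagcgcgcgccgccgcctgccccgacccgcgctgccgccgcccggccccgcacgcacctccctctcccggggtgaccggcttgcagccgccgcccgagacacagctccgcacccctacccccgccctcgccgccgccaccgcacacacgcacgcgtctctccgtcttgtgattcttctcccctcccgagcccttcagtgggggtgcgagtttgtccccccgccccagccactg

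The 3 windows differ. That of *Sema4f* holds 3 E-boxes, which begin at -184, -110 and -89 from the start, and 4 CG dinucleotides. Those of *Sema5a* and *Efna5* hold no E-box but 17 and 32 CG dinucleotides. Among 32851 RefSeq promoter windows of the same 250 bases, 66.2% hold an E-box and 12.2% hold at least as many as *Sema4f*, the median number of CG dinucleotides is 6, and 23.5% and 4.58% hold at least as many as *Sema5a* and *Efna5*. Of the genes that fell, *Sema4f* thus had fewer and *Efna5* more CG dinucleotides upstream than the median promoter. A match is a description of letters in this window and no site of binding was measured.

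Genes that act with or beside these families were also counted. Of 38 intracellular effectors, which relay guidance signals to the cytoskeleton, 35 were tested, and 2 were lower at d0 (5.71%, beside 3.52% of all genes), 4 lower at d8 (11.4%, beside 5.35%) and none higher. *Fyn*, a kinase activated by plexins and Eph receptors, fell by 1.15 ± 0.18 on the log2 scale at d0 (adjusted p = 0.0214) and by 1.32 ± 0.18 at d8 (adjusted p = 0.0128), and *Limk1*, which phosphorylates cofilin, fell by 1.36 ± 0.23 at d0 (adjusted p = 0.0270). *Trio*, a guanine nucleotide exchange factor, fell by 1.05 ± 0.16 at d8 (adjusted p = 0.0178). Of 28 other guidance molecules 11 were tested, and 3 were lower at each day (27.3%). *L1cam*, a neuronal adhesion molecule, fell from a mean of 64.0 to 2.44 CPM at d0 (adjusted p = 0.00397) and from 36.8 to 0.361 CPM at d8 (adjusted p = 0.00178). *Gap43*, a growth cone protein, went from a mean of 53.5 CPM in WT d0 and 8.06 CPM in WT d8 libraries to 0 CPM in all AMPK-KO libraries (adjusted p = 0.0148 and 0.0223). *Rgma*, a repulsive ligand of neogenin, fell by 1.53 ± 0.29 at d0 (adjusted p = 0.0370), and *Flrt1*, an adhesion molecule, fell by 4.09 ± 0.73 at d8 (adjusted p = 0.0271). At d0, *L1cam* and *Gap43* were still called without WT d0 replicate 1 (adjusted p = 0.00770 and 0.0177) and without replicate 2 (0.00497 and 0.0175). *Limk1* was called without replicate 1 (0.0223) and not without replicate 2 (0.0660), and *Fyn* (0.0562 and 0.0551) and *Rgma* (0.111 and 0.0551) were called in neither case. At d8, *L1cam* was called without AMPK-KO d8 replicate 1 (0.0106) and replicate 2 (0.00581), *Fyn* (0.0683 and 0.0298) and *Gap43* (0.0683 and 0.0439) only without replicate 2, and *Trio* (0.0504 and 0.0643) and *Flrt1* (0.142 and 0.0701) in neither case. Without AMPK-KO d0 replicate 1 none of these genes was called at d0, and without replicate 2 *L1cam* alone was (0.0324). Of these genes *L1cam* alone was called at d8 without either WT d8 library (0.0117 and 0.0107).

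Some transcripts usually taken as neuronal were also lower in AMPK-KO cells. *Tubb3* was measured at 129 and 230 CPM in WT d0 libraries and at 11.5 and 8.70 CPM in AMPK-KO d0 libraries, and *Stmn2* at 115 and 150 CPM against 0.733 and 2.34 CPM. Over the 7 neuron markers, of which 3 were tested, the summed level was 320 and 828 CPM in WT d0, 13.0 and 21.1 in AMPK-KO d0, 132 and 90.4 in WT d8, and 2.08 and 10.2 CPM in AMPK-KO d8 libraries, with *Tubb3* or *Nefl* the most abundant, and 2 were lower at each day. The defining neuron markers *Rbfox3* and *Snap25* had 0 counts in all 8 libraries of this experiment, and *Syt1* had at most 2 counts. *Syp* had 4 and 4 counts in WT d0, 3 and 14 in AMPK-KO d0, 0 and 1 in WT d8, and 1 and 8 in AMPK-KO d8 libraries. The part of these transcripts in the guidance gene differences was not tested. Myoblast markers also differed, with 2 of 6 lower at d0, *Myod1* at 77.5 and 133 CPM in WT against 7.90 and 13.6 CPM in AMPK-KO libraries and *Pax7* at 8.06 and 9.16 CPM against 0 and 0.0468 CPM, and 1 of 6 lower at d8 (*Pax7*). Of the 6 myotube markers, 1 was lower at d0 (*Myog*) and none was called at d8, where the AMPK-KO libraries were far apart. Without AMPK-KO d8 replicate 2, the library with more of these transcripts, *Myog*, *Myh3* and *Myh1* were lower at d8 (adjusted p = 0.0278, 0.00787 and 0.00906), and without replicate 1 none was. Of the 6 fibroblast markers, none was called at d0 and 2 of 5 tested were lower at d8 (*Col1a1* and *Lum*), of which *Col1a1* was also called without AMPK-KO d8 replicate 2 (adjusted p = 0.0378) and neither without replicate 1 (0.101 and 0.157). Schwann cell and endothelial markers summed to at most 2.91 and 13.1 CPM per library in this experiment, with none called. In bulk libraries fewer cells that express a gene and less RNA of it per cell cannot be told apart.

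With differentiation of WT cells, guidance genes were called at about the rate of all genes. Of the 54 tested genes 7 were called between d8 and d0, 3 higher and 4 lower, against a background of 12.4% of all genes (5.78% higher and 6.58% lower), beside a share of 13.0% among the guidance genes. The myotube markers all rose in both genotypes (6 of 6). Among the 7 called genes *Sema4d* had the largest log2 fold change, rising from 0.965 and 1.08 CPM at d0 to 11.3 and 19.1 CPM at d8 (log2 fold change 3.88 ± 0.55, adjusted p = 0.0143). *Sema3d*, a secreted semaphorin, rose from 38.8 and 26.5 to 120 and 102 CPM (1.76 ± 0.29, adjusted p = 0.0156). *Ntn4*, a netrin related to laminin chains, rose from 41.9 and 50.2 to 143 and 162 CPM (1.73 ± 0.36, adjusted p = 0.0278). In all 3 genes, picked by adjusted p in these same libraries, both d8 libraries were above both d0 libraries. *Sema6b*, a ligand of plexin-A4, went from 2.07 and 3.85 to 0.220 and 0.469 CPM (-3.06 ± 0.63, adjusted p = 0.0271), and *Sema4b*, a class 4 semaphorin, from 52.1 and 61.2 to 31.4 and 29.4 CPM (-0.90 ± 0.22, adjusted p = 0.0412). *Plxna1*, a plexin that pairs with neuropilins, went from 242 and 330 to 171 and 150 CPM (-0.83 ± 0.20, adjusted p = 0.0426). *Efna5* also fell, by 1.60 ± 0.41 (adjusted p = 0.0460). Without WT d0 replicate 1, 12 guidance genes were called in this comparison (14.9% of all genes), among them *Sema3d* (adjusted p = 0.0183), *Plxna1* (0.0245), *Sema6b* (0.0248), *Sema4d* (0.0258) and *Sema4b* (0.0454), but not *Ntn4* (0.0766) or *Efna5* (0.0957). Without WT d0 replicate 2 none was, nor was any other gene, the lowest adjusted p of the 7 being 0.0716 for *Sema4d*. None was called either without WT d8 replicate 1 (lowest adjusted p of the 7 0.0723) or without WT d8 replicate 2 (0.115), where 2 genes and 0 genes were called in all, and 4 were without AMPK-KO d8 replicate 2 (11% of all genes). In these 3 fits the myotube markers were not called in WT cells either.

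In AMPK-KO cells 3 of the 54 were called with differentiation, 2 higher and 1 lower, against a background of 9.76% (4.81% higher and 4.95% lower). With the replicate number as a block 7 were called, beside 12.9% of all genes. *Sema3d* was called in both genotypes and rose from 25.5 and 30.0 to 150 and 91.9 CPM (2.12 ± 0.29, adjusted p = 0.0210). *Sema3c*, a secreted semaphorin, rose from 51.9 and 47.9 to 144 and 251 CPM (1.98 ± 0.44, adjusted p = 0.0382), and *Epha2* fell from 302 and 210 to 102 and 65.6 CPM (-1.61 ± 0.38, adjusted p = 0.0428). The AMPK-KO libraries of the 2 days did not overlap in these genes, which were picked by adjusted p in the same libraries. No guidance gene was called without AMPK-KO d0 replicate 1 or replicate 2, where 0 genes and 1 gene were called in all and no myotube marker was. There was 1 call (*Sema3d*) without WT d8 replicate 1 or replicate 2 (2.93% and 2.39% of all genes) and without AMPK-KO d8 replicate 2 (2.6%), and there were 8 without WT d0 replicate 1 or replicate 2 (11.5% and 11.4%) and by the DESeq2 Wald test (17.7%). *Sema3c* in WT cells was measured at 62.9 and 116 CPM at d0 and at 82.7 and 164 CPM at d8, with the days overlapping. The difference between the changes of the genotypes was called, after the filter on low counts, for no guidance gene by edgeR or DESeq2, and over all 14329 genes for none by edgeR (0%) and 60 by DESeq2. With no filter, edgeR called 449 of 25084 genes (1.79%) and 2 guidance genes, *Sema3e* (1.56 ± 0.33, adjusted p = 0.000261) and *Sema3c* (1.49 ± 0.33, adjusted p = 0.000612), which are named here after their values were seen. *Sema3e*, a secreted ligand of plexin-D1, was measured at 63.2 and 127 CPM in WT d0, 73.7 and 120 in AMPK-KO d0, 77.6 and 74.2 in WT d8, and 210 and 252 CPM in AMPK-KO d8 libraries. Both AMPK-KO d8 libraries were above the other 6, and after the filter the difference of its changes had an adjusted p of 0.892, and that of *Sema3c* of 0.969. At an unadjusted p under 0.05 by edgeR there were 5 guidance genes and 729 genes in all, and of the guidance genes *Sema3a* had the lowest adjusted p (difference of log2 changes 0.72 ± 0.20, adjusted p = 0.876). After the filter, a gene called in 1 genotype and not in the other is therefore not shown to differ between them.

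**Figure D4:**
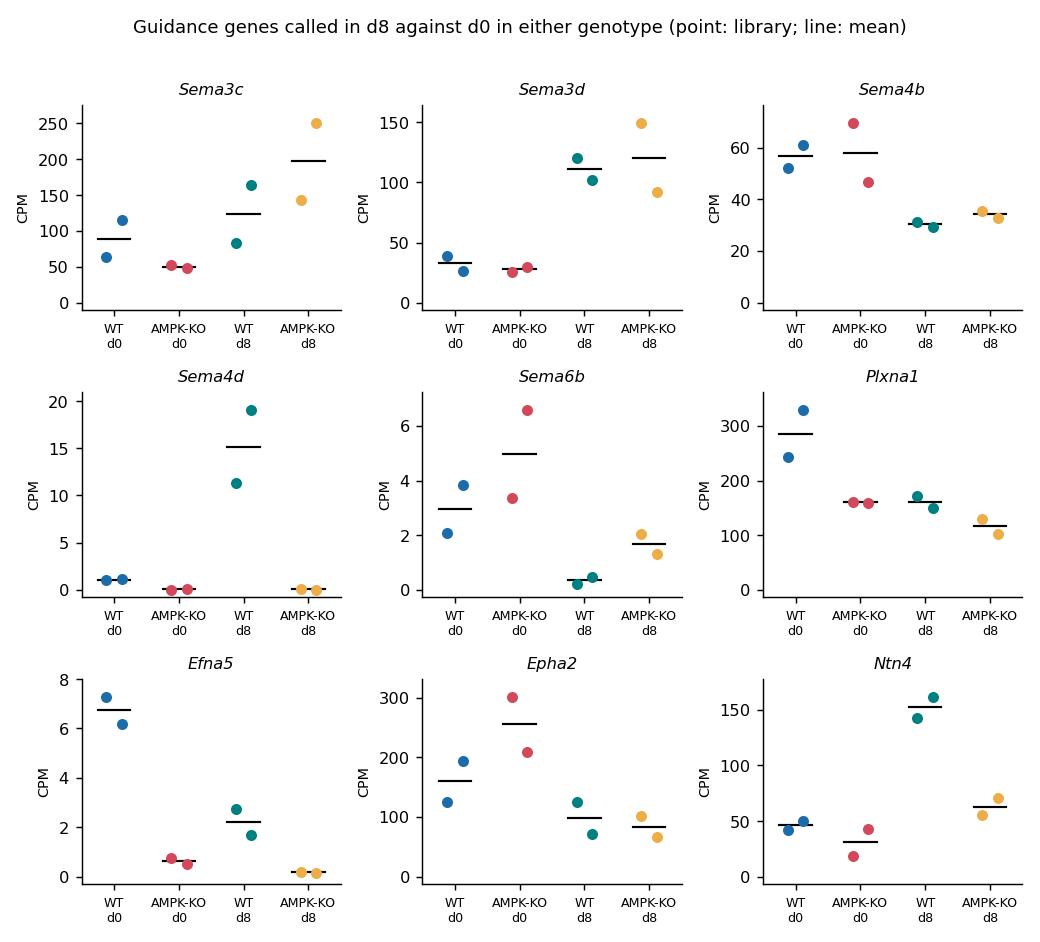
CPM (vertical axes, linear from 0, with a scale of its own for each gene) of the 9 guidance genes called between d8 and d0 in WT or AMPK-KO cells. Each point is a library and each line the mean of 2 libraries. *Sema3d* was higher at d8 in each genotype, and *Ntn4* reached 152 CPM in WT d8 and 62.9 CPM in AMPK-KO d8 cells.

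Effectors and other guidance molecules were also counted over time, with calls in both directions. In WT cells 4 of 35 tested effectors rose and 3 fell (20%, beside 12.4% of all genes), among them *Limk1* (-1.27 ± 0.23, adjusted p = 0.0184) and *Dpysl2*, a collapsin response mediator (-1.19 ± 0.25, adjusted p = 0.0273). In AMPK-KO cells 1 rose and 3 fell (11.4%, beside 9.76%), with *Ngef*, the exchange factor of EphA receptors, at -1.62 ± 0.35 (adjusted p = 0.0349), *Rnd1*, a plexin-binding GTPase, at -1.57 ± 0.34 (adjusted p = 0.0370) and *Rras* at 0.73 ± 0.16 (adjusted p = 0.0391), none of which was called without AMPK-KO d8 replicate 1 (0.0947, 0.0687 and 0.105) or replicate 2 (0.136, 0.156 and 0.145). Without WT d0 replicate 1, *Limk1* was still called (adjusted p = 0.0116) and *Dpysl2* was not (0.0602), and without replicate 2 neither was (0.0939 and 0.0782), nor without WT d8 replicate 1 (0.0789 and 0.0772) or replicate 2 (0.1401 and 0.157). Of the 11 tested other guidance molecules, 2 rose in WT cells (*Rgma* by 1.38 ± 0.28, adjusted p = 0.0261, and *Flrt1* from a mean of 0.362 to 3.92 CPM, adjusted p = 0.0271), a share of 18.2%. *Rgma* was also called without WT d0 replicate 1 (0.0402) and not without replicate 2 (0.136), and *Flrt1* was called in neither case (0.0734 and 0.123). Neither was called without WT d8 replicate 1 (0.0723 and 0.0772) or replicate 2 (0.166 and 0.193). In AMPK-KO cells 3 rose and 1 fell (36.4%), with *L1cam* at -2.76 ± 0.41 (adjusted p = 0.0217), *Rgma* at 1.80 ± 0.29 (adjusted p = 0.0222) and *Rgmb* at 1.22 ± 0.28 (adjusted p = 0.0421), of which *L1cam* and *Rgma* were called without either AMPK-KO d8 library and *Rgmb* only without replicate 1 (0.0392, and 0.173 without replicate 2). None of the effectors and other guidance molecules called in AMPK-KO cells was called without AMPK-KO d0 replicate 1 or replicate 2, where *L1cam* had an adjusted p of 0.124 and 0.0730 and *Rgma* of 0.124 and 0.0826. Of the 5 tested fibroblast markers 3 rose in WT cells (*Col3a1*, *Dcn* and *Lum*) and 1 in AMPK-KO cells (*Dcn*), where *Col1a1* was measured at 96.8 and 133 CPM at d0 and 35.3 and 75.0 CPM at d8 and was not called. Their part in these differences was not tested. Of the 3 tested neuron markers 1 fell in each genotype, and of the 6 myoblast markers 1 rose in AMPK-KO cells and none was called in WT cells.

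In AMPK-null myoblasts, some ephrin and semaphorin ligands were lower and *Slit2*, *Robo1* and *Robo2* higher in TET2-S97E than in TET2-WT cells when libraries were taken as replicates. Of the 49 guidance genes tested, 9 were called between TET2-S97E and TET2-WT cells, 3 higher and 6 lower, against a background of 6.98% of 13433 genes (3.71% higher and 3.28% lower). Of the 4 tested A ephrins 3 fell, the tested Slit and both tested Robo genes rose, and 2 membrane-bound semaphorins and 1 secreted semaphorin fell. In all 9 the 4 libraries of a genotype did not overlap those of the other. These genes were picked by adjusted p in the same libraries, and no share of all genes is given, so the separation adds no support. None of the 9 was among the genes called between AMPK-KO and WT cells. The overlap of these calls over all genes is not given, so this is no result about the guidance genes. Clones are the units that carried the mutation, and with counts summed per clone (2 against 2) edgeR called no guidance gene and no gene at all, while 17 guidance genes and 1575 of 15126 genes had an unadjusted p under 0.05. With clone as a random effect (limma voom) 2 of the 9 stayed called, *Efna1* (adjusted p = 0.0351) and *Robo2* (adjusted p = 0.0330). No other guidance gene was called in this fit, and 1.24% of all genes were.

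*Efna1* (chr3:89271733-89281142), the A ephrin with the highest level in WT d0 cells, was measured in clone 1 and then clone 2 at 26.4, 31.3, 27.5 and 31.2 CPM in TET2-WT libraries and at 12.3, 13.4, 16.1 and 16.6 CPM in TET2-S97E libraries. The libraries of a genotype lay close together, although TET2-S97E clone 2 was above clone 1, and the log2 fold change was -0.99 ± 0.15 (adjusted p = 0.00784). *Efna3*, also GPI-anchored, was measured at 3.30, 4.19, 5.04 and 5.45 CPM in TET2-WT and at 1.31, 1.82, 1.51 and 2.09 CPM in TET2-S97E libraries (-1.41 ± 0.27, adjusted p = 0.0194). *Efna4* was measured at 14.4 ± 1.02 CPM (SD, n = 4) in TET2-WT and 7.89 ± 2.10 CPM in TET2-S97E libraries (adjusted p = 0.0411). *Efna2*, the other tested A ephrin, lay in the same direction (-0.99 ± 0.27) and did not pass (adjusted p = 0.0597).

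*Robo2* (chr16:73891839-74411825), a receptor for Slits, was measured at 22.3, 17.1, 8.61 and 8.09 CPM in TET2-WT libraries and at 148, 89.7, 44.8 and 69.6 CPM in TET2-S97E libraries (log2 fold change 2.65 ± 0.44, adjusted p = 0.0112). In the first experiment it had been measured at 0.0542 to 2.77 CPM. *Robo1* was measured at 4.57, 5.30, 10.1 and 18.2 CPM in TET2-WT and at 29.5, 23.8, 55.9 and 61.2 CPM in TET2-S97E libraries (2.16 ± 0.48, adjusted p = 0.0287). Their ligand *Slit2* was measured at 46.0, 33.5, 47.5 and 46.3 CPM in TET2-WT and at 61.8, 61.5, 64.8 and 73.3 CPM in TET2-S97E libraries (0.59 ± 0.14, adjusted p = 0.0329). For *Robo1*, clone 2 was above clone 1 in each genotype, while for *Robo2* clone 1 was the higher in each. In WT cells of the first experiment *Slit2* was measured at 169 and 33.5 CPM at d0 and 188 and 148 CPM at d8, and in AMPK-KO cells at 38.7 and 22.6 and at 76.6 and 74.7 CPM. *Robo1* there was measured at 31.8 and 54.9 CPM in WT d0, 12.5 and 21.8 in AMPK-KO d0, 24.7 and 24.1 in WT d8 and 28.4 and 17.9 CPM in AMPK-KO d8 libraries. Neither gene was called between WT and AMPK-KO cells, and the experiments were normalized separately, so no test was made across them.

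*Sema7a*, a GPI-anchored semaphorin, was measured at 196, 209, 328 and 406 CPM in TET2-WT libraries and at 73.2, 133, 116 and 70.9 CPM in TET2-S97E libraries (log2 fold change -1.53 ± 0.30, adjusted p = 0.0194). In the first experiment it was measured at 178 and 155 CPM in WT d0, 306 and 292 in AMPK-KO d0, 220 and 61.0 in WT d8 and 230 and 124 CPM in AMPK-KO d8 libraries and was not called. *Sema3c* was measured at 88.4, 72.1, 281 and 109 CPM in TET2-WT and at 10.7, 6.96, 37.6 and 25.2 CPM in TET2-S97E libraries (-2.78 ± 0.60, adjusted p = 0.0268). Its highest TET2-S97E library was below its lowest TET2-WT library, and clone 2 was above clone 1 in each genotype. *Sema4g*, a class 4 semaphorin, was measured at 16.1 ± 7.65 CPM in TET2-WT and 4.84 ± 2.56 CPM in TET2-S97E libraries (adjusted p = 0.0425).

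**Figure D5:**
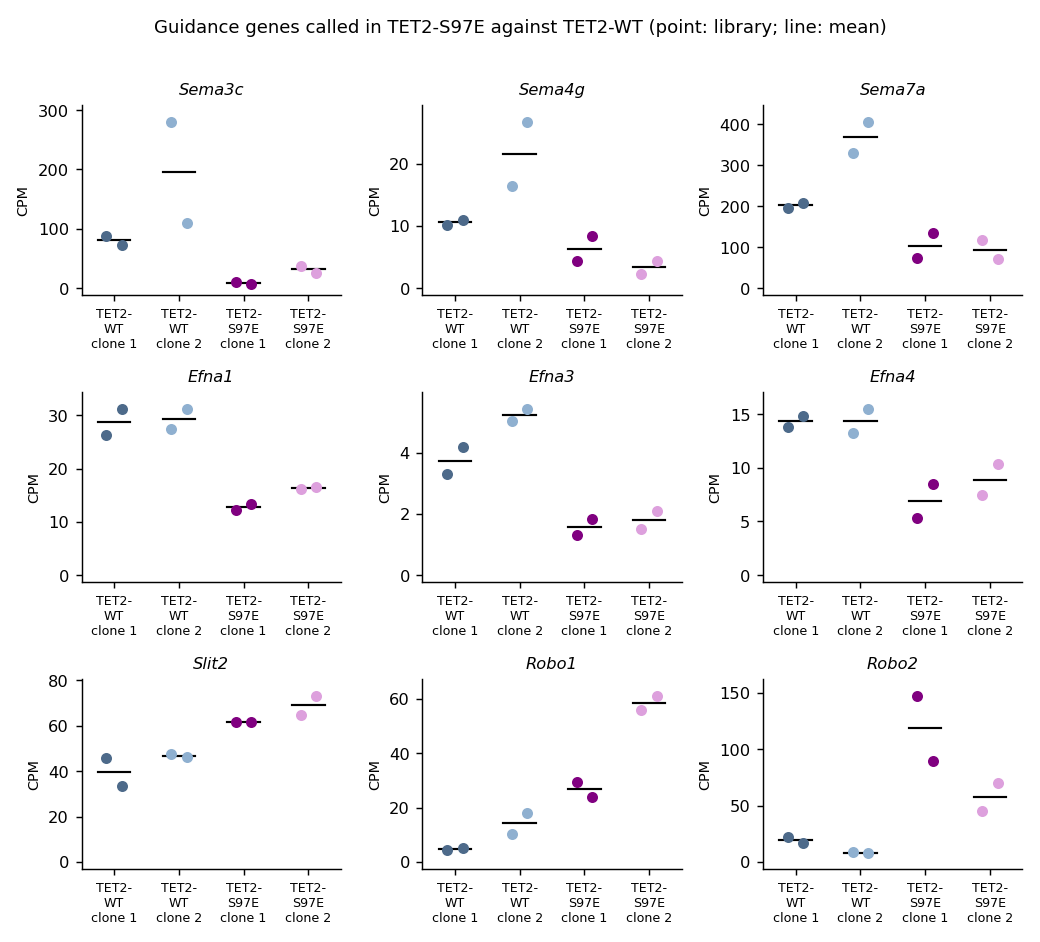
CPM (vertical axes, linear from 0, with a scale of its own for each gene) of the 9 guidance genes called between TET2-S97E and TET2-WT cells, by clone. Each point is 1 of 2 libraries of a clone and each line their mean. *Efna1* was not called between clones of either genotype, although it was higher in TET2-S97E clone 2 than in clone 1. *Robo1* and *Sema3c* were called between the TET2-S97E clones.

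Without TET2-WT clone 1 there were 2 calls among the guidance genes (1.29% of all genes), and without TET2-S97E clone 2 there were 12 (8.42%). Of single libraries, there were 2 without TET2-WT clone 2 replicate 1 (304 of 14005 genes in all), 3 without TET2-S97E clone 1 replicate 1 (435 of 14015) and 5 without TET2-WT clone 1 replicate 1 (315 of 14020) or replicate 2 (412 of 13576), and the DESeq2 Wald test made 18 (13.6%). Of the muscle markers, 5 of 6 myotube markers and 2 of 6 myoblast markers (*Myod1* and *Pax7*) were higher in TET2-S97E cells, and the other 4 myoblast markers were not called. The summed myoblast markers were 1267, 1567, 1262 and 1437 CPM in TET2-WT libraries, 4756 and 3404 CPM in TET2-S97E clone 1 and 1555 and 1192 CPM in TET2-S97E clone 2, which overlapped TET2-WT. The summed myotube markers, with *Acta1* the most abundant in 6 of 8 libraries and *Tnnt3* in TET2-WT clone 1, were 10.2, 13.0, 28.2 and 214 CPM in TET2-WT and 4577, 1437, 1524 and 301 CPM in TET2-S97E libraries. Their part in the guidance gene differences was not tested. Of the other markers, only the endothelial *Tek* was called (lower), with summed endothelial markers of at most 7.37 CPM, and no neuron, Schwann cell or fibroblast marker was called. Of 32 tested effectors 2 were higher and 2 lower (12.5%, beside 6.98% of all genes), with *Dpysl2* at 1.12 ± 0.22 (adjusted p = 0.0213), *Rnd2*, a small GTPase, at -0.69 ± 0.17 (adjusted p = 0.0419) and *Pak1*, a kinase downstream of Rac, at -0.61 ± 0.16 (adjusted p = 0.0466). Of 10 tested other guidance molecules 3 were called (30%). *Neo1*, the receptor neogenin, rose by 0.69 ± 0.13 (adjusted p = 0.0186), its ligand *Rgma* rose by 0.80 ± 0.20 (adjusted p = 0.0405) and *Flrt3* went from a mean of 1.51 to 0.251 CPM (adjusted p = 0.0371). Each of these 6 genes lost its call without at least 2 of the 8 libraries taken singly, with adjusted p up to 0.0690 for *Dpysl2*, 0.0609 for *Neo1*, 0.108 for *Rgma*, 0.1005 for *Flrt3*, 0.109 for *Rnd2* and 0.131 for *Pak1*.

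Clones of the same genotype differed in guidance genes as well. In TET2-WT cells 4 of 50 tested genes were called between clone 2 and clone 1, all higher in clone 2, against a background of 0.858% of 14459 genes (0.463% higher and 0.394% lower). With the replicate number as a block 10 were called, beside 4.68% of all genes. Without TET2-WT clone 1 replicate 1 *Ephb2* was the guidance gene called, of 2 genes in all, and without replicate 2 no gene was called. Without TET2-WT clone 2 replicate 2 there were 2 calls (0.183% of all genes), without TET2-S97E clone 1 replicate 1 or replicate 2 there were 7 (1.59% and 1.56%), and the DESeq2 Wald test made 13 (6.18%). In TET2-S97E cells 7 were called, 5 higher and 2 lower, against a background of 6.17% (3.35% higher and 2.82% lower), with 3 calls without TET2-WT clone 1 replicate 1 or replicate 2 (3.06% and 3.15% of all genes) and 4 without TET2-S97E clone 1 replicate 1 (3.15%) or clone 2 replicate 1 (3.74%). *Ephb2*, a receptor for B ephrins, was measured at 0.904 and 1.00 CPM in TET2-WT clone 1, 15.0 and 13.3 in clone 2, and at 9.63 and 10.7 CPM in TET2-S97E clone 1 and 28.0 and 23.8 in clone 2. Clone 2 was higher by 3.87 ± 0.24 on the log2 scale in TET2-WT (adjusted p = 0.000546) and by 1.35 ± 0.20 in TET2-S97E cells (adjusted p = 0.00492). *Sema3f*, a secreted ligand of neuropilin-2, was measured at 3.53 and 5.43 against 14.0 and 15.0 CPM in the TET2-WT clones (1.67 ± 0.30, adjusted p = 0.0465) and at 0.303 and 0.488 against 6.51 and 5.03 CPM in the TET2-S97E clones (3.81 ± 0.38, adjusted p = 0.00128). *Robo1* was higher in clone 2 by 1.51 ± 0.28 (adjusted p = 0.0465) and by 1.14 ± 0.26 (adjusted p = 0.0355). Clone numbers are names within a genotype, so a clone 2 that is higher in both does not link the clones.

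The remaining clone differences were called in 1 genotype. *Sema6d* was measured at 1.54 and 1.56 CPM in TET2-WT clone 1 and at 9.71 and 7.30 CPM in clone 2 (2.45 ± 0.33, adjusted p = 0.0157). In TET2-S97E cells *Epha7* was measured at 20.3 and 14.9 CPM in clone 1 and 38.1 and 46.1 CPM in clone 2 (1.26 ± 0.20, adjusted p = 0.00788), *Sema4c*, a class 4 semaphorin of muscle and brain, at 161 and 203 against 61.9 and 88.2 CPM (-1.27 ± 0.24, adjusted p = 0.0167) and *Sema6a*, a ligand of plexin-A2 and plexin-A4, at 38.7 and 16.5 against 8.84 and 4.41 CPM (-2.07 ± 0.47, adjusted p = 0.0351). *Sema3c* was higher in clone 2 by 1.84 ± 0.43 (adjusted p = 0.0362). Differences between the genotypes in these clone effects were not tested. In the TET2-S97E clones all 3 tested neuron markers were higher in clone 2, with *Stmn2* at 0.303 and 0.195 CPM in clone 1 and 38.7 and 35.1 CPM in clone 2 and summed neuron markers of 2.22 and 2.80 against 59.6 and 43.5 CPM, while 4 of 6 myoblast markers and 1 of 6 myotube markers were lower. Of the others 2 fibroblast markers (*Dcn* and *Lum*) were higher and 1 endothelial marker (*Cdh5*) lower. Between the TET2-WT clones 1 myoblast marker (*Myod1*) and 2 fibroblast markers (*Col1a1* and *Lum*) were higher in clone 2. The part of these markers in the clone differences was not tested. No effector or other guidance molecule was called between the TET2-WT clones. Between the TET2-S97E clones 3 of 34 tested effectors were higher and 2 lower (14.7%, beside 6.17%), led by *Dpysl3* (1.56 ± 0.18, adjusted p = 0.00188), *Ngef* (-1.54 ± 0.18, adjusted p = 0.00217) and *Pak3* (from a mean of 0.150 to 4.98 CPM, adjusted p = 0.00426), and 2 of 12 tested other guidance molecules were higher and 2 lower (33.3%), led by *L1cam* (from a mean of 0.0578 to 1.08 CPM, adjusted p = 0.00854), *Cxcr4*, the receptor of *Cxcl12* (-2.43 ± 0.42, adjusted p = 0.0110), and *Ntng2* (-1.53 ± 0.31, adjusted p = 0.0235). Without each of the 4 TET2-S97E libraries in turn, *Dpysl3*, *Ngef*, *Pak3* and *Cxcr4* were called each time, *L1cam* was not without either clone 1 library (0.0553 and 0.0632) and *Ntng2* was called only without clone 1 replicate 1 (0.0326).

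*Unc5c*, *Plxna4* and *Sema4d*, which were near 0 counts in AMPK-KO cells, were also near 0 in the AMPK-null TET2 lines. *Unc5c* had 0 counts in 7 of the 8 libraries and 6 counts in TET2-S97E clone 2 replicate 1. *Plxna4* had at most 2 counts, *Sema4d* at most 4 and *Efna5* at most 6 counts per library, and none of these 4 genes passed the filter for a test there. Of the genes called higher in AMPK-KO cells, *Sema5a* was measured at 628, 430, 561 and 639 CPM in TET2-WT and 369, 470, 394 and 346 CPM in TET2-S97E libraries, and *Epha7* at 28.4, 25.1, 16.2 and 15.5 CPM in TET2-WT and 20.3, 14.9, 38.1 and 46.1 CPM in TET2-S97E libraries. *Sema4a* was measured at 6.51 to 16.1 CPM in TET2-WT and 4.94 to 7.06 CPM in TET2-S97E libraries. None of these 3 genes was called between the TET2 genotypes. Of the other genes called lower in AMPK-KO cells, *Sema4f* was measured at 0.294 to 1.72 CPM over the 8 libraries, below its 4.19 and 5.14 CPM in AMPK-KO d0 cells. *Sema6d* had means of 5.03 CPM in TET2-WT (1.54 to 9.71 CPM over the libraries) and 4.60 CPM in TET2-S97E libraries, beside 5.72 CPM in WT d0 and 1.72 CPM in AMPK-KO d0 libraries. These levels come from tables normalized separately and were not tested. Also left out of the genotype comparison were *Unc5a*, *Sema5b*, *Plxnb3*, which was tested between clones only, and 12 genes that were not tested in the first experiment either. Of the 68 genes, 28 were called in at least 1 of the comparisons. No such count over all genes is given, so the 28 cannot be set against a background.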

How the data were processed

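Total RNA depleted of ribosomal RNA was sequenced paired-end. Per the study's methods and the submitters' processing notes, the authors used bcl2fastq 2.17, trimmed with Trim Galore 0.4.5, aligned to GRCm38 with STAR 2.5.3a in 2-pass mode and counted reads per gene with featureCounts 1.5.3. The deposited values are raw counts per gene, in 1 table for each experiment. Strand and multimapping settings of the counting are not given in the sources used here, so overlapping, antisense and near-identical genes may share reads.

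Symbols and gene types were taken from GENCODE release M21, which matched 49326 of 49585 identifiers. The guidance genes and all lists were chosen with earlier results of these data known. Counts were filtered with filterByExpr, normalized with TMM and tested with edgeR 4.0.16 (quasi-likelihood, R 4.3.3), with 1 mean per group over the 8 libraries of the first table, genotype alone in the second, and a separate fit with 1 mean per clone. Genes were called at a Benjamini-Hochberg adjusted p under 0.05 over all genes tested. The tables were normalized separately and not tested against each other. Bounds used a floor of 3 counts per library, and ratios with 1 count an exact 95% interval. Full values were given for the 6 called genes with the lowest adjusted p in each comparison and for the gene with the highest TPM of each family in WT d0 cells, other called genes were given more briefly, and up to 3 genes were named per pathway list and comparison, except that 1 gene is not reported here. Scripts were tested on simulated data. Alternatives were DESeq2 1.42.0 size factors and its Wald test, other filters, a fold threshold, the replicate number as a block, fewer libraries, counts summed per clone, and limma 3.58.1 voom with clone as a random effect. Values of pathway and marker genes without single libraries, and bounds from 1 WT library alone, were added after seeing the data.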

Additional observations from a re-analysis of the deposited data

Results flagged for a closer look

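Among 48 groups of 4 libraries examined for a single distant library, 2 held one by Dixon's criterion, where chance gives about 1 in 20. *Sema4a* was measured at 7.06 CPM in TET2-S97E clone 2 replicate 2, against 4.94, 4.98 and 5.10 CPM in the other TET2-S97E libraries. *Slit2* was measured at 33.5 CPM in TET2-WT clone 1 replicate 2, against 46.0, 46.3 and 47.5 CPM in the other TET2-WT libraries.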

How the results depend on the processing

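Of 662 alternative values for the 46 calls of guidance genes, 457 stayed past the threshold, 205 did not and 0 changed direction. With the DESeq2 Wald test, 15 guidance genes were called at d0, 17 at d8, 8 with differentiation in AMPK-KO cells, 18 between the TET2 genotypes and 13 between the TET2-WT clones, while 9.72%, 11.6%, 17.7%, 13.6% and 6.18% of all genes were called. With no filter on low counts the numbers were 24 at d0, 26 at d8, 18 and 17 with differentiation in WT and AMPK-KO cells, 2 for the difference of these changes, 17 between the TET2-WT clones and 13 between the TET2-S97E clones, beside 8.08%, 9.98%, 13.1%, 12.1%, 1.79%, 6.36% and 6.56% of all genes. With at least 10 counts in every library, which leaves out genes at 0 in a group, 3 were called at d0, 2 at d8 and 4 with differentiation in WT cells (1.78%, 2.41% and 13.3% of all genes). With only the groups compared in the fit there were 3 at d0, 15 at d8 and 4 with differentiation in WT cells (2.54%, 5.61% and 8.85%). Between the TET2 genotypes 0 were called with counts summed per clone, 2 with clone as a random effect and 2 without TET2-WT clone 1 (0%, 1.24% and 1.29%). The cause of these shifts was not tested. Leaving out 1 library at a time gave 0 to 9 calls at d0, 2 to 13 at d8, 0 to 12 and 0 to 8 with differentiation in WT and AMPK-KO cells, 0 to 0 for the difference, 2 to 12 between the TET2 genotypes, and 0 to 7 and 3 to 8 between the TET2-WT and TET2-S97E clones, while 0.112 to 4.07%, 0.715 to 5.95%, 0 to 14.9%, 0 to 11.5%, 0 to 0.0398%, 304 of 14005 to 1092 of 13439 genes, 0 to 2.02% and 3.06 to 6.86% of all genes were called in this order, where a library left alone in its group was assumed to vary like the other groups. Without either AMPK-KO d0 library 0 were called with differentiation in AMPK-KO cells, and without either WT d8 library 0 in WT cells. Between the TET2 genotypes the count was 5 without either replicate of TET2-WT clone 1, 2 without TET2-WT clone 2 replicate 1 and 3 without TET2-S97E clone 1 replicate 1. DESeq2 size factors kept each count within 1 of that reported.

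Replicate numbers are shared between groups, but only 2 numbers exist and the labels do not say what they mark. Deviations of same-numbered libraries correlated between 0.157 and 0.425 in the first experiment and between -0.0784 and 0.567 in the second. With the replicate block 9 and 11 guidance genes were called at d0 and d8, 8 and 7 with differentiation in WT and AMPK-KO cells, 0 for the difference, 10 between the TET2 genotypes, and 10 and 10 between the TET2-WT and TET2-S97E clones, beside 5.16%, 7.98%, 16.5%, 12.9%, 0%, 6.39%, 4.68% and 10.7% of all genes. With 2 libraries per group, genes with few counts are the least precise.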
